A study of Mus musculus with 8 samples.

Results

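The axon guidance genes of 4 ligand and receptor systems were examined in whole mouse embryos: ephrins and Eph receptors, semaphorins with their plexin and neuropilin receptors, Slits and Robo receptors, and netrins and Unc5 receptors. The members were taken by gene symbol, and 65 of the 19950 genes in the table carried a symbol of one of these families. They comprised 8 ephrins, 13 Eph receptors, 20 semaphorins, 8 plexins, 2 neuropilins, 3 Slits, 4 Robo receptors, 3 netrins and 4 Unc5 receptors. RNA was measured by bulk sequencing at embryonic day 6.5 in 4 mutant embryos, given the genotype Axin1;Axin2 mutant, and in 4 WT embryos. In the library names the mutants are marked DKO. The alleles, strain and litters were not stated in the labels used here. Whether embryos shared a litter is therefore not known, and the p-values treat the embryos as independent.

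These proteins act between neighbouring cells or over short distances and tell a cell to adhere, withdraw or turn. Ephrins are tied to the membrane of one cell and bind Eph receptor tyrosine kinases on another, whereas class 3 semaphorins, Slits and netrins are secreted. Although named for growing axons, the same families act on migrating mesoderm and on blood vessel precursors, and gastrulation involves such migration. Axin1 and Axin2 are scaffolds of the complex that degrades β-catenin and so restrain WNT signalling.

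Reads assigned to genes ranged from 26615732 to 36778164 per library. Values are the authors' size-factor scaled counts and are listed in the order of replicates 1, 2, 4 and 5, the numbers in the library names. Axin1 was lower in the mutants, with scaled counts of 1722, 1984, 2203 and 2074 in mutant embryos against 5274, 5140, 2963 and 4884 in WT embryos (log2 change -1.16 with SE 0.18, limma adjusted p = 0.00269). Axin2 had 370.5 ± 113 in mutant embryos and 266 ± 32.6 in WT embryos (SD, n = 4 each) and did not pass the test (limma adjusted p = 0.19). All 4 mutant libraries and WT replicates 1 and 4 held Y-linked transcripts, with a summed scaled count of at least 5244, and WT replicates 2 and 5 had at most 14.2. Markers of epiblast summed to between 29640 and 40801 in mutant embryos and between 118070 and 130070 in WT embryos, and 8 of 8 were lower in the mutants. Those of extraembryonic and lateral mesoderm summed to between 31246 and 65757 in mutant embryos and between 9429 and 11954 in WT embryos, and 8 of 8 were higher. Those of visceral endoderm overlapped, at 103820 to 154800 in mutant embryos and 124190 to 150370 in WT embryos. Of them 2 of 8 were lower, Afp and Foxa2. Markers of maternal decidua summed to 13521, 4565, 40973 and 21638 in mutant embryos and to between 1701 and 3490 in WT embryos. Of these, 5 of 9 tested genes were higher, and Lum was at 0 in all WT libraries and in mutant replicate 1. In mutant replicate 1 Des made up 7413 of the sum. There Des, Bmp2, Col3a1, Pgr, Hsd11b2 and Wnt4 lay above their WT ranges, and Prl8a2, Dcn and Cryab lay within theirs. In whole embryos, a change in the number of cells of a type and a change in RNA per cell cannot be told apart.

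Guidance genes moved in both directions, and receptors made up most of those that changed. Both neuropilins, the netrin receptor Unc5c, the ephrins Efna1 and Efnb3, the plexins Plxna4 and Plxnd1 and the Eph receptors Epha4, Epha5 and Ephb4 were higher in the mutants. Epha1, Epha2, Epha8, Unc5a, Plxnb1, Sema3e, Sema4c and Sema6a were lower. Of the 65 members 60 reached a scaled count of 10 in 4 or more libraries and were tested, and 10 rose and 8 fell at a limma adjusted p under 0.05. The background over all 15600 genes tested was 8.03% higher and 7.55% lower (15.6% in all), whereas the members gave 16.7% and 13.3%. With each library centred on its median, 10 members were higher and 10 lower, and over all genes 1029 were higher and 1590 lower, against 1253 and 1178 with the deposited scaling. The median log2 fold change was 0.06 over the members tested and 0.00 over all genes tested. At a fold of at least 2, 8 members were higher and 5 lower, beside 4.89% and 3.45% of all genes. The 4 values of each genotype did not overlap for 21 of the 60 members (35%), beside 22.4% of all genes tested. Among 29 receptors tested 8 were higher and 5 lower, and among 31 ligands 2 were higher and 3 lower. The difference between receptors and ligands was not tested. Counts for single families below can be read against 8.03% higher and 7.55% lower, and no family was tested against these shares.

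**Figure D1:**
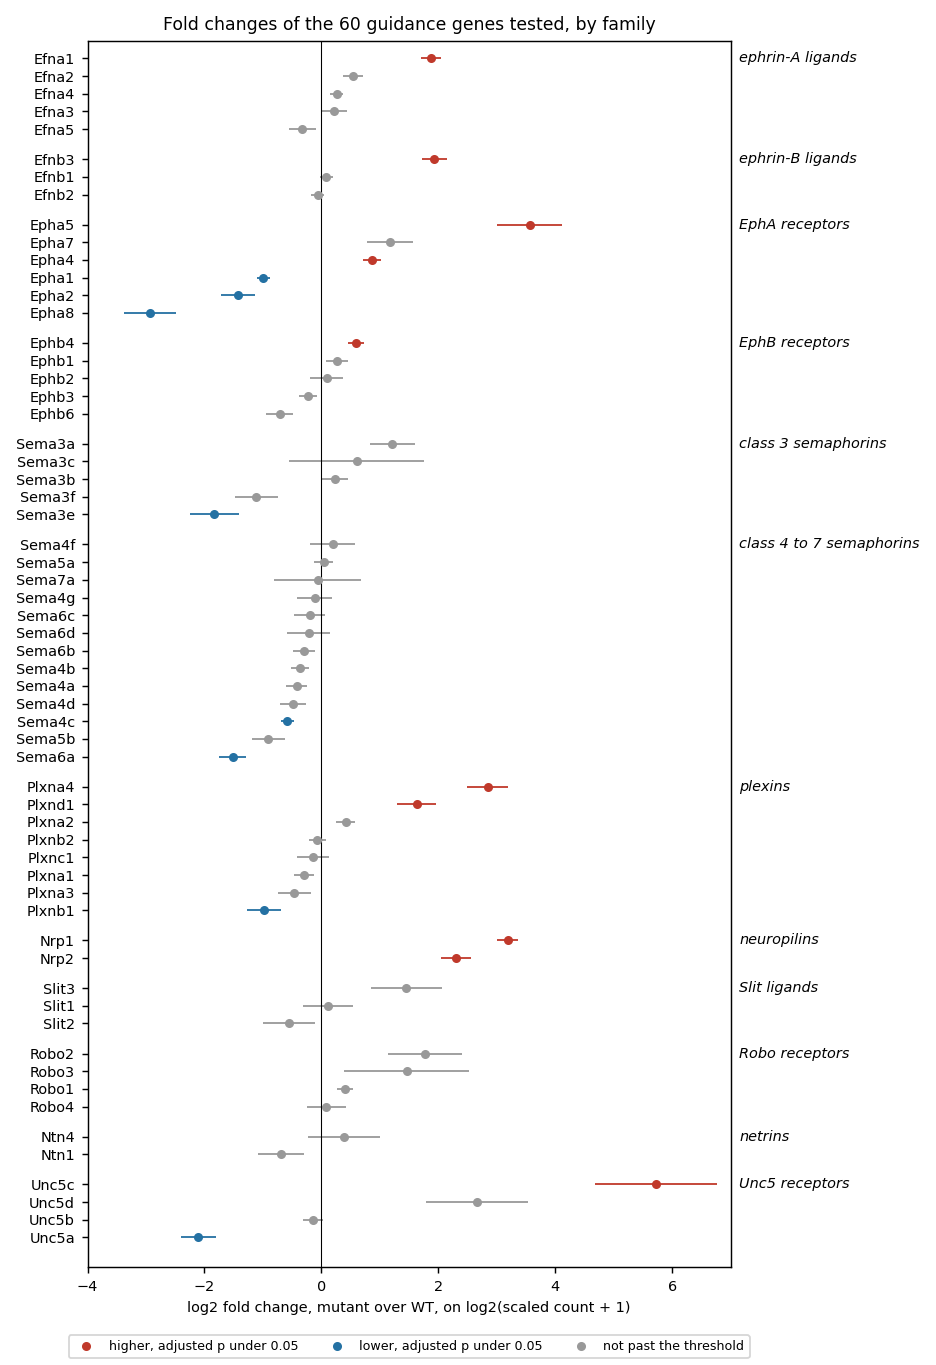
Log2 fold change of mutant over WT on log2(scaled count + 1) for the 60 guidance genes tested, in family blocks, with bars of 1 standard error from limma and colour giving the call. Unc5c stands farthest to the right at 5.72 and Epha8 farthest to the left at -2.93.

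Among the ephrins, 1 of 5 ephrin-A ligands and 1 of 3 ephrin-B ligands rose by limma and by edgeR, and DESeq2 added Efna2. None fell by any of these tools, with none lower at an unadjusted p under 0.05. The share of all genes at that unadjusted p is not given here. Efna1, a ligand anchored in the membrane by a lipid tail that binds mainly EphA receptors (ENSMUSG00000027954.9, GRCm38 chromosome 3, 89271733 to 89281142, minus strand), had scaled counts of 1263, 1015, 895 and 802 in mutant embryos against 284, 281, 299 and 212 in WT embryos. Every mutant library stood above every WT library, and the increase was 3.66-fold (log2 change 1.87 with SE 0.17, limma adjusted p = 0.000209). Efnb3, a ligand that spans the membrane (ENSMUSG00000003934.5, chromosome 11, 69554092 to 69560205, minus strand), had 1664, 970, 882 and 989 in mutant embryos against 316, 220, 327 and 289 in WT embryos. Mutant replicate 1 was far above the other mutants, and the genotypes did not overlap (log2 change 1.93 with SE 0.21, limma adjusted p = 0.000572). The other ephrins did not pass in the limma test of all 8 libraries. Efnb1, the most abundant ephrin per kilobase of exon, had 3549, 4372, 3181 and 2976 in mutant embryos against 3265, 3565, 3197 and 3109 in WT embryos (log2 change 0.09 with SE 0.12, limma adjusted p = 0.673), and the 2 ranges overlapped. Efna3 had 1081, 2232, 1953 and 2220 in mutant embryos against 1608, 1416, 1469 and 1702 in WT embryos. Its low value in mutant replicate 1 stood alone, and without that library it passed, higher (limma adjusted p = 0.0142; log2 fold change 0.46, against 0.22 in all 8 libraries). Exons of Efna3 and Efna4 overlap genes on the opposite strand, over 14.1% and 10.51% of their length, and the cDNA kit does not keep strand, so those reads cannot be told apart. Efna2, Efna4, Efna5 and Efnb2 did not pass, with log2 fold changes from -0.32 for Efna5 to 0.53 for Efna2.

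The EphA receptors split, with 3 of 6 tested lower and 2 higher, while 1 of 5 EphB receptors was higher. Epha1 (ENSMUSG00000029859.6, chromosome 6, 42358487 to 42373268, minus strand) had 2353, 2534, 2170 and 2569 in mutant embryos against 5065, 3900, 5638 and 4663 in WT embryos. The mutants lay close together and below every WT library (log2 change -0.99 with SE 0.11, limma adjusted p = 0.000649, a 1.99-fold decrease). Exons of Zyx on the opposite strand overlap 6.01% of the exon length of Epha1, and those reads cannot be told apart. Epha2 (chromosome 4, 141301240 to 141329384, plus strand) had 420, 549.8, 249 and 511 in mutant embryos against 1262, 689, 1410 and 1281 in WT embryos. The lowest WT library, replicate 2, was still above the highest mutant (log2 change -1.43 with SE 0.29, limma adjusted p = 0.0111). Epha8, known from the nervous system (chromosome 4, 136929419 to 136956816, minus strand), had the largest decrease of the members, with 29.1, 39.6, 12.2 and 10.3 in mutant embryos against 119, 149, 151 and 226 in WT embryos. The genotypes were well apart (log2 change -2.93 with SE 0.44, limma adjusted p = 0.00248), and with mutant replicates 1 and 2 alone against all WT libraries the log2 fold change was -2.17.

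Epha4, which binds both ephrin classes (chromosome 1, 77367185 to 77515088, minus strand), moved the other way, with 1049, 734, 757 and 685 in mutant embryos against 539, 416, 411 and 391 in WT embryos. All mutants were above all WT libraries (log2 change 0.87 with SE 0.16, limma adjusted p = 0.00737), and the call was lost in the 6 libraries holding Y-linked transcripts (log2 change 0.75, limma adjusted p = 0.0848; 1.88e-05 to 0.0848 over all settings). Ephb4, the receptor for ephrin-B2 that marks veins in later vessels (chromosome 5, 137350109 to 137378669, plus strand), had 7303, 5823, 4761 and 5140 in mutant embryos against 4164, 3674, 4070 and 3181 in WT embryos. Again no value overlapped (log2 change 0.60 with SE 0.14, limma adjusted p = 0.0192). Its call was lost without WT replicate 5 (limma adjusted p = 0.0542) and in the 6 libraries holding Y-linked transcripts (log2 change 0.46, limma adjusted p = 0.156; 0.00049 to 0.156 over all settings). Efnb2, the gene of that ligand, had 1447 ± 71.1 in mutant embryos and 1520 ± 231 in WT embryos (SD, n = 4 each). Epha5 also rose, with 108 reads over the 4 mutant libraries and 6 over the 4 WT libraries (limma adjusted p = 0.00298), and is named here although its values were below 100 throughout. Ephb3 had 1844, 1917, 1469 and 1812 in mutant embryos against 2268, 2233, 2387 and 1486 in WT embryos, and WT replicate 5 fell among the mutants (log2 change -0.23 with SE 0.16, limma adjusted p = 0.364). Epha7, Ephb1, Ephb2 and Ephb6 did not pass with limma or edgeR. DESeq2 called Epha7 higher (adjusted p = 0.0432) and Ephb6 lower (adjusted p = 0.0208), and limma called Ephb6 lower without mutant replicate 1 (adjusted p = 0.0387). Epha3 and Epha10 were too low to test.

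Per length, the leading Eph receptor differed between the genotypes. Epha1 had 613 scaled counts per kilobase of exon in mutant embryos and 1226 in WT embryos, and Ephb4 had 1241 in mutant embryos and 813 in WT embryos. The ratio of Ephb4 to Epha1 on this scale was 2.63, 1.95, 1.86 and 1.69 in the mutants against 0.696, 0.798, 0.611 and 0.577 in WT, so Ephb4 led in every mutant library and Epha1 in every WT library. This pair was picked after its values were seen and both members had passed the test. The sum over all 13 Eph receptors was 2508 ± 344 per kilobase in mutant embryos and 2912 ± 363 in WT embryos, which overlapped, and that over all 8 ephrins was 4081 ± 317 and 2993 ± 173 (SD, n = 4 each).

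**Figure D2:**
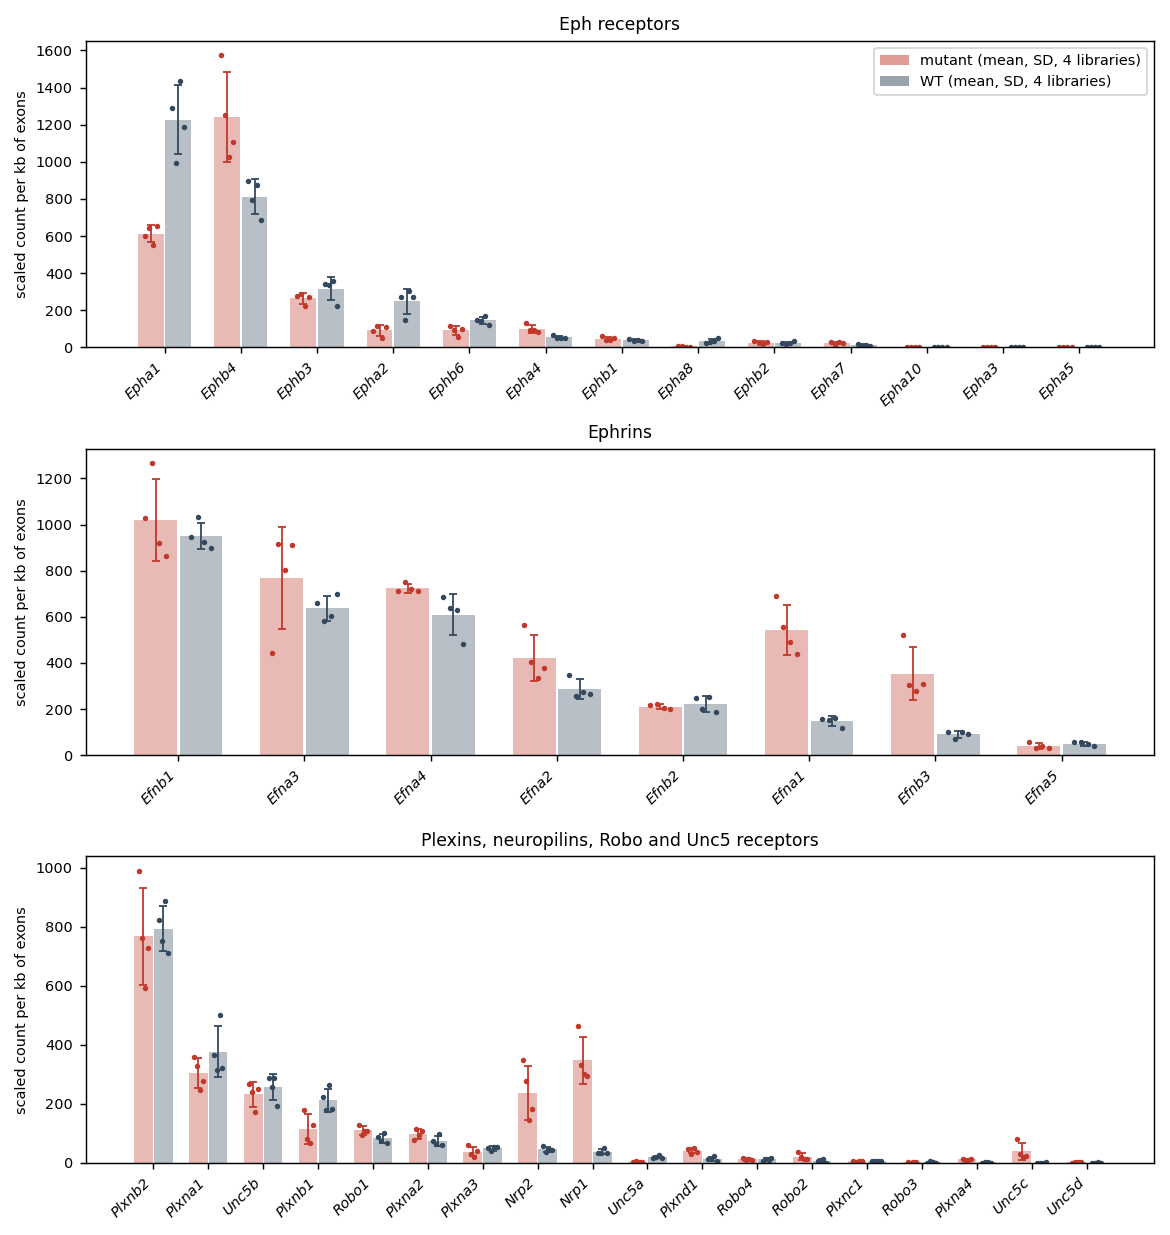
Scaled count per kilobase of merged exons for Eph receptors, ephrins and the other guidance receptors, with bars for the mean, error bars for the SD and points for the 4 libraries of each genotype, mutant left of WT. Ephb4 stands above Epha1 in the mutants and below it in WT, and Nrp1 reaches 348 in the mutants against 38.2 in WT.

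Both neuropilins rose, and Nrp1 had the smallest p of the members. Neuropilins are co-receptors that carry class 3 semaphorins to plexins and also bind VEGF. Nrp1 (ENSMUSG00000025810.8, chromosome 8, 128358604 to 128503363, plus strand) had scaled counts of 4547, 3239, 2945 and 2894 in mutant embryos against 344, 319, 505 and 328 in WT embryos. The lowest mutant was several times the highest WT library, and the increase was 9.09-fold (log2 change 3.18 with SE 0.19, limma adjusted p = 2.9e-05). Nrp2 (ENSMUSG00000025969.15, chromosome 1, 62703285 to 62818695, plus strand) had 4115, 3282, 1712 and 2170 in mutant embryos against 663, 449, 547 and 509 in WT embryos. It varied more between mutants than Nrp1 but did not overlap WT (log2 change 2.31 with SE 0.26, limma adjusted p = 0.000572, a 4.95-fold increase). Per kilobase, the pair summed to 586 ± 166 in mutant embryos and 84.0 ± 12.6 in WT embryos (SD, n = 4 each). Markers of blood and endothelium, cells in which neuropilins are known to be made, summed to between 9226 and 10837 in mutant embryos and between 1379 and 2066 in WT embryos. Of these, 5 of 8 genes were higher (Kdr, Tal1, Lmo2, Runx1 and Tek), and Etv2, Pecam1 and Cdh5 did not pass. Pecam1 and Cdh5 had means of 295 and 181 in mutant embryos, against 302 and 166 in WT embryos. The part of such cells in the neuropilin result was not tested. Both calls held in each of 20 alternative settings, with log2 fold changes from 3.002 to 3.38 for Nrp1 and from 2.10 to 2.77 for Nrp2.

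The promoters of the neuropilin pair are shown because both genes rose and 1 of them held the only match, among these families, to the sequence searched. TCF and LEF factors, which bring β-catenin to DNA, bind a core of CTTTGAT. RefSeq windows of 250 bases before to 50 after a start site (build GRCm38.p6) were searched on both strands for it, and 56 of the 65 members had such a window. The core was present in 1 of 72 windows of these genes and in 3.73% of all 32851 windows of that length. The 1 match was in Nrp2 (chr1:62703067-62703366, plus strand), at position -146 from the start site and on the strand shown, and is in capitals. The window of Nrp1 (chr8:128358823-128359122, plus strand) held none. A match is a description of letters and not a bound site.
Nrp2: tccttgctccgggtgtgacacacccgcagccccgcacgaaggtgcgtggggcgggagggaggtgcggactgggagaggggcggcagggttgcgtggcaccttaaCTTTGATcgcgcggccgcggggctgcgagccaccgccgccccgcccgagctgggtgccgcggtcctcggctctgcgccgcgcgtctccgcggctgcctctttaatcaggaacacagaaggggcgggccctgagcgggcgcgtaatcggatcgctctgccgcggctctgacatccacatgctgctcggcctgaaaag
Nrp1: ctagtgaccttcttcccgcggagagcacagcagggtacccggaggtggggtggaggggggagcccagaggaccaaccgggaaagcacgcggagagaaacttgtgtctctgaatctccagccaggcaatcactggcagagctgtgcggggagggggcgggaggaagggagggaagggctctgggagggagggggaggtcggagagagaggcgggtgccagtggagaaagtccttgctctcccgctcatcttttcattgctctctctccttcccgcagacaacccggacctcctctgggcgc

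Of 8 plexins tested 2 rose and 1 fell. Plxna4, which transmits class 3 signals together with neuropilins (chromosome 6, 32144268 to 32588192, minus strand), had 179, 160.2, 144 and 205 in mutant embryos against 18.6, 27.5, 40.7 and 13.02 in WT embryos. The mutants formed a tight group well above WT (log2 change 2.84 with SE 0.34, limma adjusted p = 0.000855). Plxnd1, the receptor of Sema3E in vessels (chromosome 6, 115954811 to 115995005, minus strand), had 357, 225, 382 and 272 in mutant embryos against 88.1, 97.6, 180.2 and 56.8 in WT embryos. No value overlapped (log2 change 1.63 with SE 0.34, limma adjusted p = 0.0117), but mutant replicate 4, which held the most decidua transcripts, was the highest library. The call was lost with mutant replicates 1 and 2 alone against all WT libraries (limma adjusted p = 0.0806, log2 fold change 1.54) and in the 6 libraries holding Y-linked transcripts (log2 change 1.25, limma adjusted p = 0.0853; 0.000158 to 0.0853 over all settings). The part of maternal tissue in this result was not tested. Plxnb1, the receptor of Sema4D, averaged 1099 ± 490.2 in mutant embryos and 2042 ± 377 in WT embryos (SD, n = 4 each; limma adjusted p = 0.0453). Mutant replicate 1, at 1738, fell within the WT range, and the call was lost without any one of WT replicates 1, 2, 4 or 5 or mutant replicates 2, 4 or 5 (limma adjusted p 0.0645 to 0.117) and with edgeR (adjusted p = 0.0609). Plxnb2, the most abundant plexin, had 7642, 5877, 4578 and 5624 in mutant embryos against 6356, 5822, 6849 and 5505 in WT embryos, and the ranges overlapped fully (log2 change -0.07 with SE 0.14, limma adjusted p = 0.797; 0.05 without mutant replicate 4). Plxna1 had 3266, 2975, 2246 and 2530 in mutant embryos against 3326, 2865, 4538 and 2912 in WT embryos (limma adjusted p = 0.271), and 10.7% of its exon length overlaps a gene on the opposite strand. Plxna2, Plxna3 and Plxnc1 did not pass.

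No semaphorin rose by limma or edgeR, and 3 of 18 tested fell by both tools. Over all genes tested limma called 8.03% higher and 7.55% lower, and a difference of the family from these shares was not tested. DESeq2 called 1 higher, Sema3a, and 5 lower. At an unadjusted p under 0.05 limma gave 1 higher and 7 lower, and over all 60 members tested 19 higher and 13 lower. The share of all genes at that unadjusted p is not given here, so no direction of the family is read from these counts. Sema3e, a secreted ligand of Plexin-D1 (chromosome 5, 14025276 to 14256689, plus strand), had 88.3, 203, 280 and 450.3 in mutant embryos against 884, 837, 853 and 581 in WT embryos. The mutants were spread widely, all below WT (log2 change -1.83 with SE 0.42, limma adjusted p = 0.0191). The call was lost without WT replicate 1 (limma adjusted p = 0.0549) or WT replicate 4 (0.054) and in the 6 libraries holding Y-linked transcripts (0.0928; 0.00032 to 0.0928 over all settings). Its log2 change was -1.99 in those 6 libraries and -2.53 with mutant replicates 1 and 2 alone. Sema6a, a ligand spanning the membrane that binds class A plexins (chromosome 18, 47235598 to 47368870, minus strand), had 1794, 1117, 881 and 1441 in mutant embryos against 4473, 2603, 4083 and 3572 in WT embryos. It fell 2.86-fold without overlap (log2 change -1.51 with SE 0.23, limma adjusted p = 0.00275). Sema4c, a ligand of Plexin-B2 (chromosome 1, 36548639 to 36558349, minus strand), had 999, 940.2, 908 and 1103 in mutant embryos against 1706, 1577, 1438 and 1222 in WT embryos. The gap between the genotypes was small but complete (log2 change -0.58 with SE 0.12, limma adjusted p = 0.0105), and exons of another gene on the opposite strand overlap 7.27% of its length.

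Of the remaining semaphorins none passed in the limma test, although some did in other settings. Sema3f, the ligand of neuropilin-2, had 473, 548, 603 and 1641 in mutant embryos against 1590, 2159, 1515 and 1075 in WT embryos. Mutant replicate 5 alone lay among the WT libraries (log2 change -1.11 with SE 0.37, limma adjusted p = 0.0786), and with mutant replicates 1 and 2 alone it was lower (limma adjusted p = 0.0101). Sema3a, the ligand of neuropilin-1, stayed low, at 40.6 ± 13.6 in mutant embryos and 17.1 ± 6.94 in WT embryos (SD, n = 4 each; limma adjusted p = 0.0636). Sema3c had 11.9, 0.921, 97.9 and 46.9 in mutant embryos against 11.1, 2.84, 18.2 and 23.7 in WT embryos, and its 2 high values were in the mutant libraries with the most decidua transcripts. Sema3g was below the filter, with 53 reads over the mutant libraries and 5 over the WT libraries, and passed, higher, when no filter was used (limma adjusted p = 0.0258). Sema3d was also untested. Sema3b and the other 11 members of classes 4 to 7 had log2 fold changes from -0.91 for Sema5b to 0.23 for Sema3b. Sema5b passed, lower, by DESeq2 (adjusted p = 0.0145) and by limma with each library centred on its median (adjusted p = 0.0411). It also passed by limma with quantile normalization and without mutant replicate 2. Without mutant replicate 1 limma called Sema4a lower (adjusted p = 0.0396). Per kilobase the 7 class 3 ligands summed to 225 ± 121 in mutant embryos and 418 ± 97.0 in WT embryos (SD, n = 4 each), and mutant replicate 5 overlapped WT.

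**Figure D3:**
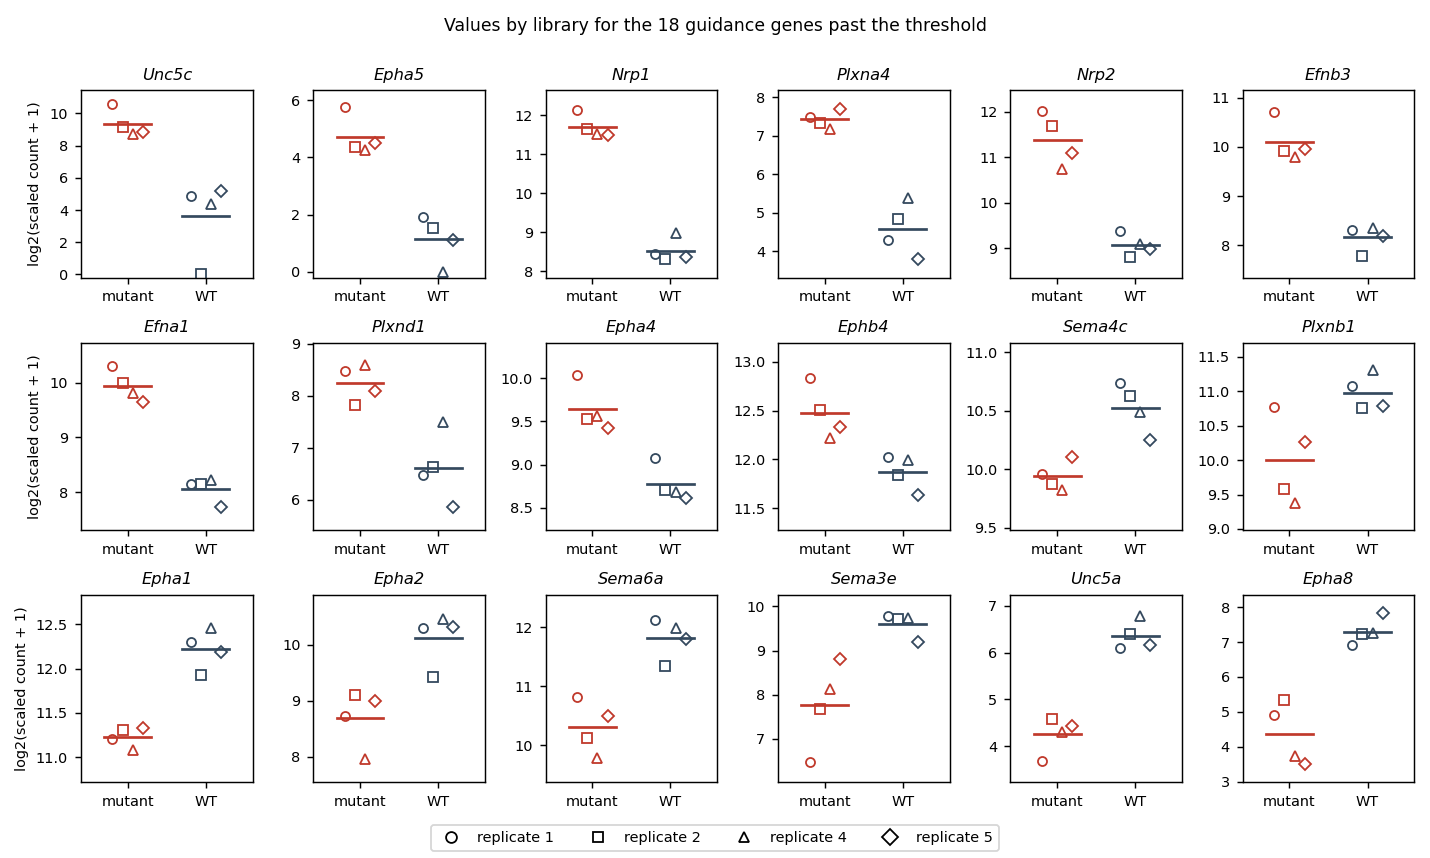
Log2(scaled count + 1) in each library for the 18 guidance genes past the threshold, mutant left of WT, with a marker shape for each replicate number and a line at the genotype mean. The genotypes do not overlap for any gene shown except Plxnb1, and axes do not all start at 0.

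Among the Unc5 receptors of netrin 1 rose and 1 fell. Unc5c, a receptor that mediates repulsion by netrin (ENSMUSG00000059921.15, chromosome 3, 141465216 to 141834924, plus strand), had scaled counts of 1547, 567, 419 and 464 in mutant embryos against 27.8, 0, 19.9 and 35.5 in WT embryos. The 0 in WT replicate 2 allows up to 2.84 scaled counts, the value of 3 reads, a limit that covers counting error only. Mutant replicate 1 stood far above the others, and every mutant was above every WT library (log2 change 5.72 with SE 1.05, limma adjusted p = 0.00679). The mean was 749 ± 535 in mutant embryos and 20.8 ± 15.3 in WT embryos (SD, n = 4 each). The fold was 52.8 in all 8 libraries, 23.0 without WT replicate 2 and 26.2 in the 6 libraries holding Y-linked transcripts. Unc5a, of the same family, was below 100 on average in both genotypes, with 18.6 ± 4.80 in mutant embryos and 82.6 ± 18.4 in WT embryos (SD, n = 4 each), and fell 4.31-fold (limma adjusted p = 0.00186). Unc5b stayed the most abundant of the family per kilobase, at 233 in mutant embryos and 257 in WT embryos (limma adjusted p = 0.631). Unc5d did not pass. The ligand Ntn1 had 133, 189, 309.7 and 408 in mutant embryos against 484, 208, 487 and 445 in WT embryos, which overlapped (limma adjusted p = 0.276). Ntn4 did not pass and Ntn5 was too low to test.

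No Slit, Robo receptor or netrin was called by limma or edgeR among 9 tested, and DESeq2 called Robo1 and Robo2 higher. At an unadjusted p under 0.05 limma gave 3 higher and none lower, and over all 60 members tested 19 higher and 13 lower. The share of all genes at that unadjusted p is not given here. Slits are secreted repellents and Robos their receptors. Robo1 had 2151, 1569, 1794 and 1776 in mutant embryos against 1478, 1242, 1670 and 1141 in WT embryos, and WT replicate 4 overlapped the mutants (log2 change 0.40 with SE 0.14, limma adjusted p = 0.0827). Robo2 had 639.9, 343, 248 and 255 in mutant embryos against 119, 152, 224 and 23.7 in WT embryos. It did not overlap, but its spread left it short of the threshold (log2 change 1.78 with SE 0.63, limma adjusted p = 0.0926). Slit3 had 476, 319, 709 and 414 in mutant embryos against 301, 38.8, 228 and 292 in WT embryos, with mutant replicate 4 highest and WT replicate 2 lowest (limma adjusted p = 0.145). Slit1, Slit2, Robo3 and Robo4 had log2 fold changes from -0.56 for Slit2 to 1.46 for Robo3.

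**Figure D4:**
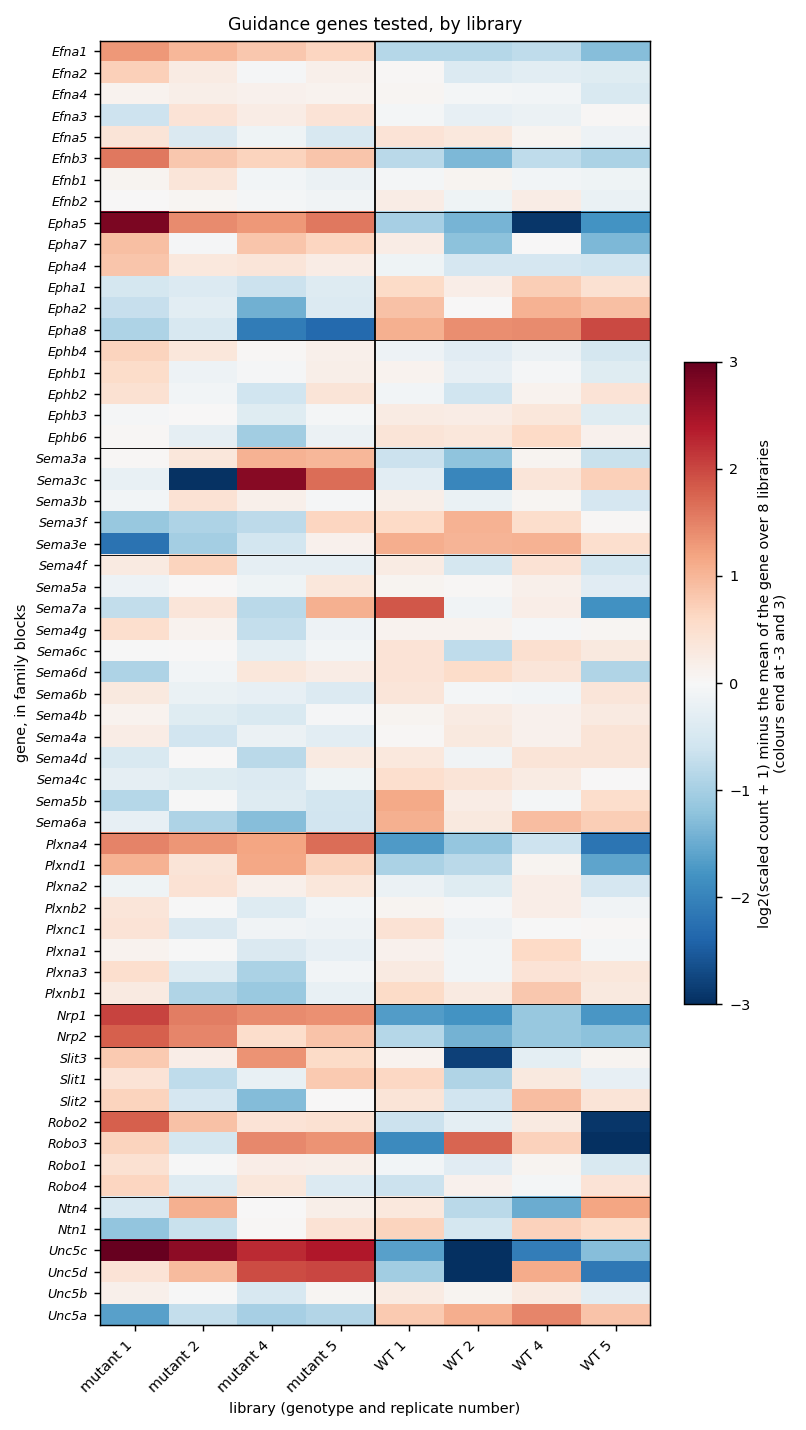
Log2(scaled count + 1) minus the mean of the gene over 8 libraries, for the 60 guidance genes tested in family blocks, mutant libraries left of WT. Red is above and blue below the mean of the gene, and Unc5c, Epha5, Nrp1 and Nrp2 are higher in every mutant library than in any WT library.

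The mutants differed among themselves in these genes. Mutant replicate 1 held the highest mutant value of 8 of the 10 raised members, namely Efna1, Efnb3, Epha4, Epha5, Ephb4, Nrp1, Nrp2 and Unc5c, and of 29 of all 60 tested. Over all genes tested that library was the highest mutant for 30.5%. Mutant replicate 4 held the lowest mutant value of 6 of the 10 raised and 5 of the 8 lowered members, and of 26 of the 60, beside 29.3% of all genes tested. The extraembryonic and lateral mesoderm markers followed the same order at the ends, summing to 65757, 40994, 31246 and 35966 in the mutants, highest in replicate 1 and lowest in replicate 4. The sum of the decidua markers was highest in mutant replicate 4, at 40973, and lowest in mutant replicate 2, at 4565. Not every marker put replicate 2 below replicate 1, as Prl8a2, Cryab and Lum were lower in mutant replicate 1. The part of mesoderm and decidua in the spread of the guidance genes was not tested. Among the WT libraries, replicates 2 and 5 were the lowest for 23 and 27 of the 60 members tested, beside 30.4% and 24.8% of all genes tested. Replicates 1 and 4 were the highest for 19 and 27, beside 23% and 24.3% of all genes. Those pairs are also the libraries without and with Y-linked transcripts, so a difference by library and one by the presence of Y-linked transcripts cannot be told apart. WT replicate 2 also had the lowest sum of streak and mesoderm markers, at 8845, against 17245 to 22177 in the other WT libraries. The part of this difference in the low values of WT replicate 2 was not tested. In the 6 libraries holding Y-linked transcripts 13 of the 18 calls remained and none was added, with Epha4, Ephb4, Plxnb1, Plxnd1 and Sema3e lost. With mutant replicates 1 and 2 alone against all WT libraries 16 remained, without Plxnb1 and Plxnd1, and Efna2 and Sema3f were added.

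Other genes of these pathways, which carry the signal inside the cell or act as further ligands and co-receptors, also moved both ways. Of 69 tested members of that list 12 were higher and 6 lower (9 and 10 with each library centred on its median). The list's median log2 fold change was 0.09, against 0.00 over all genes tested. The counts can be read against 8.03% higher and 7.55% lower for all genes, and the part of the list that was lower is near that share. With median centring 1029 of all 15600 genes were higher and 1590 lower. Kdr, the VEGF receptor that acts with neuropilins in vessels and is also on the blood and endothelium marker list, rose to 4324 ± 1038 in mutant embryos, against 444 ± 300.3 in WT embryos (SD, n = 4 each; limma adjusted p = 0.0109). L1cam, a cell adhesion molecule that joins neuropilin-1 in a receptor complex, had 3130, 711, 374 and 593 in mutant embryos against 148, 42.6, 147 and 110.1 in WT embryos (limma adjusted p = 0.0126). Mutant replicate 1 was again far above the rest, as it was for Rnd3, a small GTPase that lowers contraction of the cell (4014 ± 1515 in mutant embryos and 1760 ± 177 in WT embryos, limma adjusted p = 0.00702). Dok1, an adaptor of tyrosine kinases, had little spread, at 334 ± 22.6 in mutant embryos and 148 ± 7.28 in WT embryos (limma adjusted p = 0.000649). Draxin, a secreted partner of netrin, and Dpysl4, of the collapsin response family, rose as well. Crmp1, of that same family, fell to 492 ± 330.3 in mutant embryos, against 1930 ± 297 in WT embryos (limma adjusted p = 0.00378). Slitrk5, Cntn2, Nrcam, Pak3 and Pak1, of which the Pak genes encode kinases that act on the cytoskeleton, fell too. In the 6 libraries holding Y-linked transcripts 528 of all 15600 genes were higher and 493 lower. Of the list, 3 were higher there (Kdr, Dok1 and Draxin) and 4 lower (Slitrk5, Crmp1, Pak3 and Cntn2). The other 11 calls were lost, Rnd3, Dpysl4, L1cam, Nrcam and Pak1 among them (limma adjusted p 0.0505 for Nrcam to 0.217 for Rras).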

How the data were processed

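RNA of 8 whole embryos was amplified with a SMART-Seq v4 kit before KAPA Hyper Prep library construction, per the labels' protocols. That kit does not keep strand. The submitters' processing notes name cutadapt 1.6, STAR 2.5.0a, HTSeq 0.5.3, DESeq and mm10. Settings and gene annotation: not given in the sources used here. The deposited values are a signal, gene counts divided by a size factor per library. Each column was whole multiples of 1 step (100% of values within 0.01 of a read), which gave back the reads; no molecular identifiers were used.

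The mutant and WT embryos were compared by limma 3.58.1 (R 4.3.3, trended prior, two-sided, Benjamini-Hochberg over 15600 genes, threshold 0.05) on log2(scaled count + 1), after requiring 10 in at least 4 libraries. Folds are 2 to the power of the difference of log2 means, so they can lie above or below the ratio of the printed means, and the pseudocount draws those of low genes towards 1. edgeR 4.0.16 and DESeq2 1.42.0 on the recovered reads called 1261 and 1832 genes higher and 1169 and 1606 lower, against 1253 and 1178 with limma. On counts simulated with the same dispersion for every gene, limma and edgeR stayed near their nominal rate of false calls, whereas DESeq2 exceeded it. The bound for DESeq2 in that test was loosened after this was seen. The simulation need not match these data, so the rate of false calls of each tool here is not known. Replicates differed beyond sampling noise (chi-square per degree of freedom 18.8 to 82.6). Coordinates and exon lengths are from GENCODE M21 (GRCm38, the assembly of mm10), matched by gene ID for 19878 of 19950 genes and all 65 members.

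Members, lists and most alternatives were chosen with earlier results of these data known. Members named in full passed the test without overlap and averaged at least 100 in the higher genotype, and beside these the 6 most abundant that did not pass; others given values were chosen after these were seen. Of the list of other pathway genes up to 6 per direction with the smallest p are named.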

Additional observations from a re-analysis of the deposited data

Results flagged for a closer look

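In 46 sets of 4 values checked (each genotype of the named members and the Axin genes), 8 held 1 library far from the other 3. Independent, normally distributed values would give about 1 in 20 sets. These sets share the same libraries and many of the genes were picked by their values, so no excess over chance can be read from this. Mutant replicate 1 was high for Unc5c (1547, against 419 to 567 in the other mutants), Efnb3 (1664.4, against 882 to 989) and Axin2 (538.6, against 303 to 335). WT replicate 4 was high for Nrp1 (505.02, against 319 to 344 in the remaining WT embryos) and low for Axin1 (2962.6, against 4884 to 5274). WT replicate 1 was high for Epha4 (539.08, against 391 to 416). WT replicate 5 was low for Sema3e (581.24, against 837 to 884) and Ephb3 (1485.7, against 2233 to 2387).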

How the results depend on the processing

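Of the 18 member calls, 13 held in every setting in which the gene was tested, and no called member changed direction. The calls lost were those of Epha4, Ephb4, Plxnb1, Plxnd1 and Sema3e, as given above, and Epha5 was not tested at a mean of at least 50. Leaving out 1 library gave 9 to 11 members higher and 6 to 10 lower, over all genes 853 to 1295 higher and 734 to 1144 lower, and in the pathway list 7 to 11 higher and 5 to 8 lower. The 6 libraries holding Y-linked transcripts left 528 genes higher and 493 lower, and 3 higher in the pathway list. Mutant replicates 1 and 2 with all WT libraries gave 707 and 723 over all genes and 7 higher in the list. Median centring and array weights each gave 10 lower in the list. DESeq2 called 15 members higher and 11 lower and also passed Robo1 (log2 fold change 0.40). Leaving out 1 library gave Plxnb2 log2 changes of -0.20 to 0.049 (the highest without mutant replicate 4), and it was 0.13 with mutant replicates 1 and 2 alone, against -0.07, and gave Efnb1 -0.023 (without mutant replicate 2) to 0.16, against 0.09; the cause was not tested. A pseudocount of 5 gave 5.01 for Unc5c and 2.25 for Epha5. DESeq2 exceeded its nominal rate of false calls on counts simulated with the same dispersion for every gene, and its rate on these data is not known.

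Deviations of same-numbered libraries correlated at -0.19 to -0.04, and those of differently numbered libraries at -0.22 to 0.24. The replicate numbers thus showed no pairing on this measure. Litters were not stated, and a shared litter or batch was not tested. With the replicate block 12 members were higher and 7 lower, and 910 and 789 of all genes. By limma with that block Plxnb1 was not called (adjusted p = 0.0671), and Efna2 (0.0384) and Epha7 (0.0427) were called higher. Depth limits only the lowest members, such as Epha3, with 17 reads over the mutant and 7 over the WT libraries.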
